A study of Mus musculus with 4 samples.

Results

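Adipokines are proteins that fat cells release into the blood, and the genes described here are 8 of the best known genes of the white fat cell: Adipoq, Lep, Retn, Cfd, Agt, Fabp4, Cebpa and Pparg. They were measured in mouse soleus, a slow-twitch calf muscle, on 4 arrays. The HSL-null pool and the wildtype pool each held soleus muscle of 5 female mice aged 6 months, and each pool was hybridised to 2 arrays as technical duplicates. HSL is hormone-sensitive lipase, the enzyme encoded by Lipe that hydrolyses stored acylglycerols, and the comparison asks how muscle gene expression differs without it. The labels give no strain and do not say how the null allele was made, and they name no treatment in either pool. Probe sets were taken where the platform annotation gives exactly 1 gene symbol and that symbol is a member. This rule gave 8 probe sets for 7 of the 8 genes, out of 10855 probe sets with 1 symbol. No listed probe set carried the symbol of Cfd (adipsin, the complement protease of fat), which is not analysed here.

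With 1 pool per genotype there are no biological replicates, so no p-value is given, and the spread between duplicate arrays covers array error only. Intensities are the deposited linear values, which were already scaled to one trimmed mean. For log2 differences, intensities under 5.7 (the 25th percentile of the table) were raised to that floor. A filter kept the 6208 probe sets with a mean intensity over the 4 arrays of at least 27.7, the median over the table. Below, separated means that each of the 4 HSL-null to wildtype array pairs differed the same way and by at least 1.5-fold, and counts of separated genes are over those above the filter. Across those 6208 probe sets, duplicate arrays correlated at r = 0.988 for HSL-null and 0.987 for wildtype. Arrays of different pools correlated nearly as closely, at 0.983 to 0.986. The 3′ to 5′ signal ratio of the beta-actin control, a sign of RNA quality, was 0.813 and 0.821 on the HSL-null arrays, against 0.688 and 0.706 on the wildtype arrays. The same ratio for Gapdh was 0.924 and 0.915 on the HSL-null arrays, against 0.955 and 0.927 on the wildtype arrays. The part of RNA quality in the differences below was not tested.

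White fat cells form when precursor cells switch on PPAR gamma and C/EBP alpha, nuclear factors encoded by Pparg and Cebpa that keep each other active and turn on the genes of lipid storage and secretion. Among their classical targets are Fabp4, the fatty acid carrier of the fat cell, and the hormone genes Adipoq and Lep. Muscle fibres themselves make little of most of these transcripts, and fat cells lie between muscle bundles and along their surface, so that a whole-muscle RNA pool can hold fat cell RNA.

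The stretches of 250 bases before the annotated start are shown for Adipoq, the gene called separated, for Agt, which lay on the other side of wildtype, for the hormone gene Lep, and for Cebpa, whose product binds the C/EBP motif searched here. They are RefSeq sequences of GRCm38.p6, from 5′ to 3′ on the strand of the gene. Capitals mark the TATA box (TATAAA), the CCAAT box (CCAAT) and a C/EBP palindrome (TTGCNNAA), each searched on both strands.
Adipoq: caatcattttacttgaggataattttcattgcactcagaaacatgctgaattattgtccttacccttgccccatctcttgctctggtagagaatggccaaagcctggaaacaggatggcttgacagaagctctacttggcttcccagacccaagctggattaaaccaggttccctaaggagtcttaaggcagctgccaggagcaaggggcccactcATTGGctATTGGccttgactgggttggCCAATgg
Agt: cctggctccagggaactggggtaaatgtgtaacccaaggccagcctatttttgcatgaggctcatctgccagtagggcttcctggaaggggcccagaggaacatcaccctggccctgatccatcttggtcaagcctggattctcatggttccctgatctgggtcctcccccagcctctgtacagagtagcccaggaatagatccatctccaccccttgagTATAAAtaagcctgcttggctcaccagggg
Lep: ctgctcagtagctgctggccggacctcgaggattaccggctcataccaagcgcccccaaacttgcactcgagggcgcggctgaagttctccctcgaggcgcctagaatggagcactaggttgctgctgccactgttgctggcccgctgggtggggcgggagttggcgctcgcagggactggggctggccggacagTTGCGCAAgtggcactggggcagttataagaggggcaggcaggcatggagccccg
Cebpa: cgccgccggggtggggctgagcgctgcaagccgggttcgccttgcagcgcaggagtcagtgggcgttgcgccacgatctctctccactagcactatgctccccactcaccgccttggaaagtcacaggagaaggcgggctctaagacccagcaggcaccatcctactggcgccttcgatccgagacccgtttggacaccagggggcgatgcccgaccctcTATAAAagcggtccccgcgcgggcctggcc
The Adipoq stretch (chr16:23146286-23146535, plus strand) held 3 CCAAT boxes, the closest at positions -7 to -3 from the start, and no TATA box by these letters. The Agt stretch (chr8:124569707-124569956, minus strand) and the Cebpa stretch (chr7:35119043-35119292, plus strand) each held a TATA box at positions -30 to -25. The Lep stretch (chr6:29059971-29060220, plus strand) held the C/EBP palindrome at positions -55 to -48. Of 32851 promoter windows of the same length, 33.8% held CCAAT, 12.4% held TATAAA and 9.56% held TTGCNNAA. The PPAR direct repeat, a pair of AGGTCA units 1 base apart, lay in 0.0335% of the windows and in none of these 4. These matches are letters in a window and say nothing about binding. Fabp4 had no entry in the promoter table.

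The adipocyte genes did not move as one block between the pools. Adipoq was 2.08-fold lower in the HSL-null pool and was the single member called separated. Cebpa and Fabp4 lay below wildtype on every array pair by smaller amounts, and the Lep arrays of the pools overlapped. Agt, which encodes the precursor of the angiotensin peptides, had about the same size of difference as Adipoq in the opposite direction, but its smallest array pair missed the 1.5-fold limit. Retn, Pparg and the second Lep probe set were too dim to pass the filter.

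**Figure D1:**
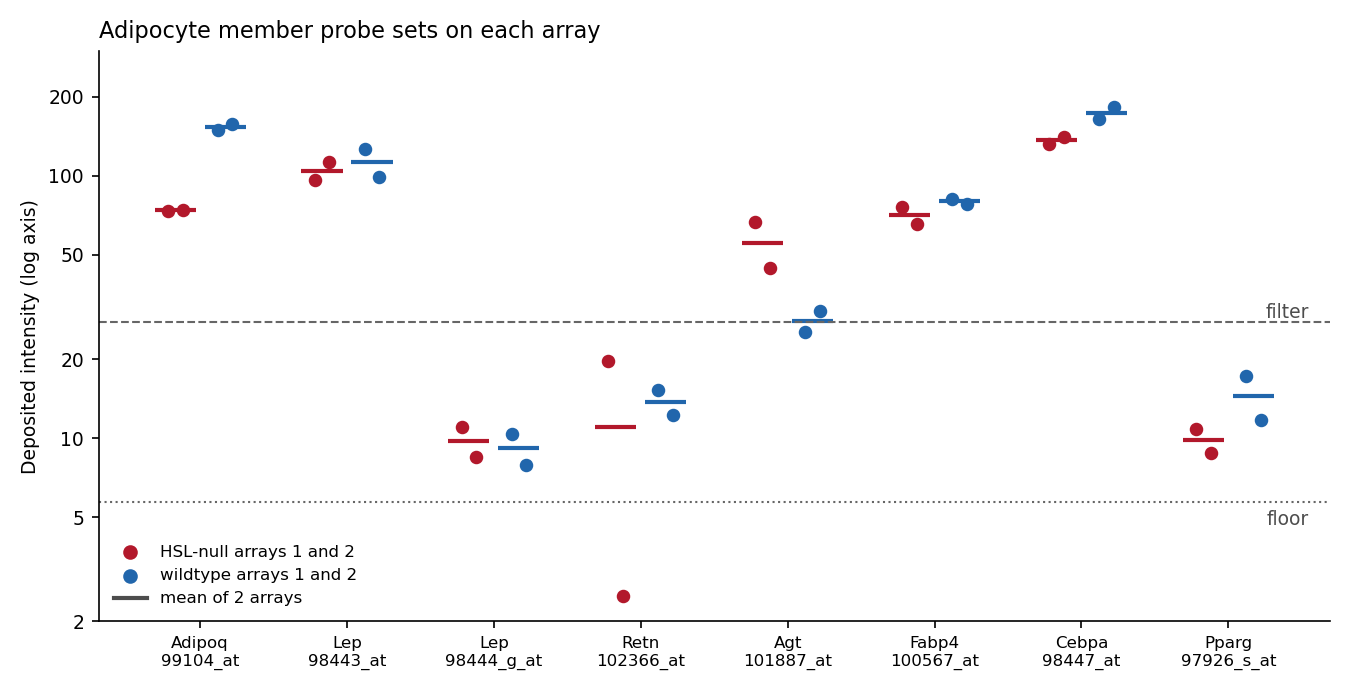
Deposited intensity (log axis) of each member probe set on the 2 HSL-null arrays (red) and the 2 wildtype arrays (blue), with bars at the mean of 2 arrays, a dashed line at the filter (27.7) and a dotted line at the floor (5.7). The HSL-null points of Adipoq (73.5 and 74.1) lie well under its wildtype points (150.2 and 157.2), those of Agt lie above, and 3 probe sets lie under the filter.

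Of the 5 member probe sets above the filter, 1 was separated lower, 0 were separated higher and 4 were neither. Over all 6208 probe sets above the filter, 0.226% were separated lower and 0.226% higher. The arrays of the pools did not overlap, lower in HSL-null, for 3 of the 5 (Adipoq, Cebpa and Fabp4), against 21.1% of all probe sets. They did not overlap, higher in HSL-null, for 1 of the 5 (Agt), against 19.5% of all probe sets. The members' counts were the same with each of 3 other scalings, but the background was not: median centring gave 1687 probe sets lower and 851 higher without overlap, against 1311 and 1208 with the values as deposited. The median log2 difference of the 5 genes was -0.18 and that without Agt was -0.26, beside -0.0022 over all probe sets above the filter. The members and lists were chosen with earlier results of these data known, and 5 genes describe themselves only.

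Of the transcription factors, Cebpa (probe set 98447_at) had intensities of 132.0 and 141.2 on the HSL-null arrays, against 164.7 and 183.6 on the wildtype arrays. Both HSL-null arrays lay below both wildtype arrays, and the gap between the pools was wider than that between duplicates. Cebpa averaged 137 ± 6.51 in HSL-null and 174 ± 13.4 in wildtype (SD, n = 2 arrays each). The log2 difference was -0.35 ± 0.092 (SE of duplicates), the 235th lowest of 6208. The array pairs of Cebpa ran from -0.48 to -0.22, so that it was not separated.

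Pparg, whose product is the receptor that fatty acids and the thiazolidinedione drugs bind, had intensities of 10.8 and 8.8 on the HSL-null arrays, against 17.3 and 11.7 on the wildtype arrays. Its probe set, 97926_s_at, belongs to a class that can match more than one sequence, and all 4 arrays lay under the filter. The HSL-null arrays lay below the wildtype arrays without overlap, but the wildtype duplicates differed by 1.48-fold. The log2 difference was -0.55 ± 0.32 (SE of duplicates), and with the floor raised to the 40th percentile (intensity 15.4) it was -0.084, so that no size is given for Pparg.

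Fabp4 (100567_at), whose protein carries fatty acids in the cytosol of fat cells and is also made by capillary endothelium and macrophages, had intensities of 76.0 and 65.7 on the HSL-null arrays. On the wildtype arrays they were 81.6 and 78.2. The groups did not overlap, but the nearest array pair differed by only -0.041 on the log2 scale. The log2 difference was -0.18 ± 0.11 (SE of duplicates), the 901st lowest of 6208, and Fabp4 was not separated.

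Adipoq (99104_at) encodes adiponectin, the hormone that raises fatty acid oxidation and insulin sensitivity in muscle and liver. Its intensities were 73.5 and 74.1 on the HSL-null arrays, against 150.2 and 157.2 on the wildtype arrays. Each HSL-null array was thus at 0.468 to 0.493 times a wildtype array, and the duplicates differed by at most 1.05-fold. Adipoq averaged 73.8 ± 0.424 in HSL-null and 154 ± 4.95 in wildtype (SD, n = 2 arrays each). The log2 difference was -1.06 ± 0.033 (SE of duplicates), the 9th lowest of 6208, and Adipoq was the member with the smallest spread between duplicates. In a whole-muscle pool, fewer fat cells and less transcript per fat cell cannot be told apart.

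Lep encodes leptin, the hormone that signals the size of the fat stores to the brain. On probe set 98443_at it had intensities of 96.7 and 112.8 in HSL-null, against 126.7 and 99.2 in wildtype. HSL-null array 2 lay above wildtype array 2, so the pools overlapped. The log2 difference was -0.10 ± 0.21 (SE of duplicates), and without wildtype array 1 it was 0.074. On 98444_g_at, also of a class that can match related sequences, Lep had intensities of 11.0 and 8.5 in HSL-null, against 10.4 and 7.9 in wildtype. That probe set lay under the filter, and its log2 difference of 0.093 ± 0.27 had the other sign. No direction is given for Lep.

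Retn (102366_at) encodes resistin, which in mice is made by fat cells and opposes insulin action. Its intensities were 19.6 and 2.5 on the HSL-null arrays, against 15.2 and 12.3 on the wildtype arrays. The HSL-null duplicates lay on either side of both wildtype arrays, and 1 of them was under the floor, so that Retn has no usable difference at this signal.

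Agt (101887_at) encodes angiotensinogen, which renin and angiotensin-converting enzyme cut to the pressor peptide angiotensin II. Its main source is the liver, and fat cells make it too. Its intensities were 66.6 and 44.7 on the HSL-null arrays, against 25.3 and 30.4 on the wildtype arrays. Both HSL-null arrays lay above both wildtype arrays, and the HSL-null duplicates differed by 1.49-fold, the widest gap between duplicates among the 5 member probe sets above the filter. Agt averaged 55.6 ± 15.5 in HSL-null and 27.9 ± 3.61 in wildtype (SD, n = 2 arrays each), and wildtype array 1 lay under the filter of 27.7.

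The log2 difference of Agt was 0.98 ± 0.32 (SE of duplicates), the 12th highest of 6208, and its array pairs ran from 0.56 to 1.40. The smallest pair, 1.47-fold, fell just short of the 1.5-fold limit. Without HSL-null array 2 the log2 difference was 1.26 and Agt was separated, and without wildtype array 2 it was 1.11 and Agt was separated. Without HSL-null array 1 it was 0.69 and without wildtype array 1 it was 0.84, and Agt was not separated in either case. Markers of hepatocytes were dim in both pools: all 6 on the array lay under the filter, with summed intensities of 39.8 and 27.2 in HSL-null and 24.9 and 24.2 in wildtype. Alb, which encodes albumin, had intensities of 2.1 and 4.8 in HSL-null, against 7.9 and 2.5 in wildtype. Ttr, the brightest of the hepatocyte markers, had 18.2 and 9.4 in HSL-null, against 7.6 and 11.9 in wildtype, so that the pools overlapped. Apoa2, an apolipoprotein gene, had 8.6 and 7.8 in HSL-null, against 4.2 and 5.1 in wildtype. Among these markers only Apoa2 lay on the same side as Agt on every array pair, and both its wildtype values were under the floor. A liver source of the Agt signal was not tested.

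**Figure D2:**
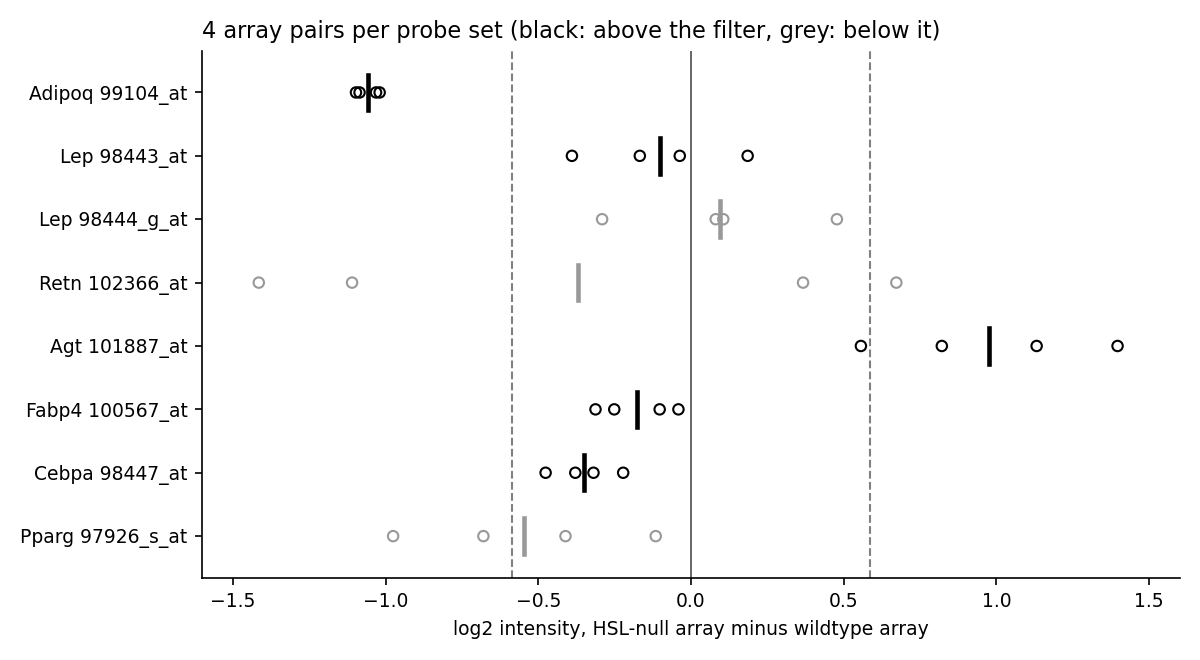
log2 difference of each of the 4 array pairs (circles) and their mean (bars) for the member probe sets, with dashed lines at the 1.5-fold limit. All 4 pairs of Adipoq lie beyond the limit on the lower side, between -1.10 and -1.02, and those of Agt lie between 0.56 and 1.40, with 1 pair inside the limit.

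The size of the difference was unequal among the members. Subtracting the log2 difference of another member from that of Adipoq gave -0.71 ± 0.062 (SE of duplicates) against Cebpa. It gave -0.88 ± 0.13 against Fabp4 and -0.96 ± 0.23 against Lep, each below 0 on all 4 array pairs. Within the same arrays Adipoq thus differed more than Cebpa, Fabp4 or Lep did. Cebpa, Fabp4 and Lep could not be ordered among themselves: Fabp4 minus Cebpa was 0.17 ± 0.19, and Lep minus Fabp4 was 0.075 ± 0.26. Agt stood apart from all 4, by 2.03 ± 0.31 from Adipoq and by 1.08 ± 0.50 from Lep, the nearest.

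**Figure D3:**
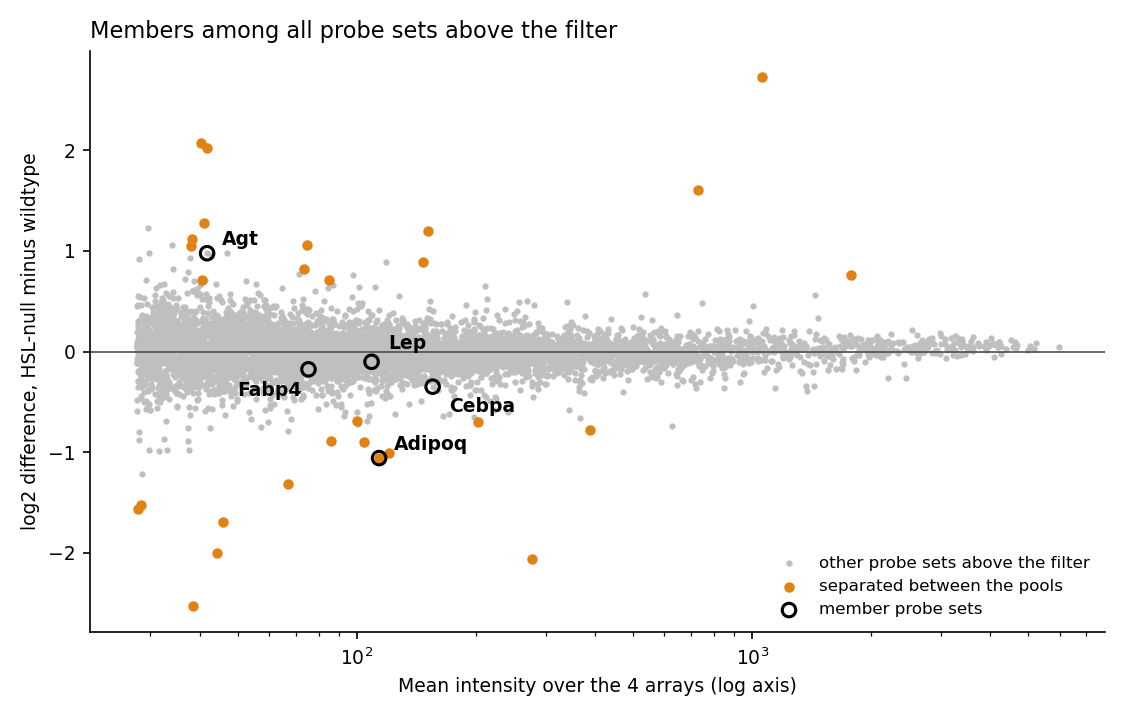
Mean intensity over the 4 arrays (log axis) against the log2 difference, HSL-null minus wildtype, for the 6208 probe sets above the filter, with the 28 separated probe sets in orange and the 5 member probe sets circled. Adipoq (-1.06) lies at the lower edge of the cloud, Agt (0.98) at the upper edge among dim probe sets, and Lep, Fabp4 and Cebpa lie within it or near its lower side.

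The genes whose profile over the 4 arrays was closest to that of Adipoq were Fasn, Pam, Cyp2e1, Scd1 and Inmt. The measure was the Euclidean distance between log2 values centred on their mean, and it ran from 0.15 for Fasn to 0.36 for Inmt. Fasn, the fatty acid synthase, had intensities of 84.9 and 75.8 in HSL-null, against 162.7 and 159.0 in wildtype. The genes closest to Agt were Pfkfb3, Itgb1bp1, Mapkapk2, Dbp and Med1, at distances from 0.34 to 0.43. Pfkfb3, the enzyme that makes the activator of phosphofructokinase, had intensities of 58.5 and 46.3 in HSL-null, against 24.9 and 23.2 in wildtype. With 4 arrays of 2 pools, such closeness says little more than that the differences had a like size and direction.

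Other genes that fat cells secrete gave no separated member above the filter. Of 15 on the array 6 passed the filter, 3 below 0 and 3 above, with a median log2 difference of 0.023 (-0.010 with median centring). Nampt, the NAD-synthesis enzyme also called visfatin, had intensities of 214.5 and 234.1 in HSL-null, against 207.9 and 197.8 in wildtype, a log2 difference of 0.14 ± 0.073 (SE of duplicates). Vegfa, the angiogenic growth factor, differed by -0.15 ± 0.22. Rbp4, the retinol carrier that fat and liver secrete, was chosen after its values were seen: it had 13.9 and 10.1 in HSL-null, against 26 and 21.3 in wildtype, so that it met the 1.5-fold rule on the lower side, as Adipoq did, but lay under the filter. Tnf and Il6, the inflammatory cytokines, were under the floor on all 4 arrays.

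The receptors and processing enzymes of the adipokines gave no separated member either, with a median log2 difference of 0.018 (-0.016 with median centring) over the 6 of 11 that passed the filter. The adiponectin receptors were close between the pools. Adipor1 had intensities of 90.3 and 72.2 in HSL-null, against 79.6 and 76.5 in wildtype, and Adipor2 had 393.8 and 409.3 in HSL-null, against 410.8 and 399.9 in wildtype. Cdh13 encodes T-cadherin, a surface protein that binds adiponectin, and had 350.0 and 313.9 in HSL-null, against 375.4 and 448.7 in wildtype, without overlap but not separated (-0.31 ± 0.15, SE of duplicates). The leptin receptor Lepr and Cap1, whose human protein binds resistin, lay under the filter. On the angiotensin side, Ace, the converting enzyme, differed by 0.11 ± 0.069. Mas1, the receptor of angiotensin 1-7, differed by -0.20 ± 0.14, and Agtr2 was under the floor on all 4 arrays.

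Partners of Pparg and Cebpa in fat cell formation were divided. Of 12 above the filter, 7 lay above 0 and 5 below (6 and 6 with median centring), with a median of 0.091. On non-overlapping arrays 6 of the 12 were higher and 1 was lower, against 19.5% and 21.1% of all probe sets. Med1, the Mediator subunit that PPAR gamma recruits, was the single separated one, with intensities of 60.8 and 55.3 in HSL-null, against 21.9 and 26.2 in wildtype. Both wildtype arrays lay under 27.7, so that Med1 passed the filter through its HSL-null level. The 2 C/EBP genes of this list were nearly level: Cebpb differed by -0.010 ± 0.035 and Cebpd by -0.10 ± 0.10. Of the inhibitors of adipogenesis, 4 passed the filter and none was separated, with a median of -0.24. Among these 4, 3 were lower and 0 were higher without overlap, against 21.1% and 19.5% of all probe sets. Dlk1, the preadipocyte surface protein gene, differed by 0.24 ± 0.21. Hes1, a Notch target, differed by -0.34 ± 0.27, Ddit3, which encodes the C/EBP partner CHOP, by -0.24 ± 0.075, and Gata2 by -0.23 ± 0.083.

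Lipid genes of the fat cell were split as well. Of 16 above the filter, 2 were separated lower (Lipe and Fasn) and none was separated higher, against 0.226% of all probe sets in each direction. Below 0 lay 10 and above 0 lay 6, against 50.5% of all probe sets below 0, and the median was -0.055. On non-overlapping arrays 6 of the 16 were lower and 4 were higher, against 21.1% and 19.5% of all probe sets. With median centring 9 were lower and 2 higher, against 1687 and 851 of all 6208 probe sets. With quantile normalization or cyclic loess 5 were lower and 3 higher. Scd1, the stearoyl-CoA desaturase, enters these counts through the brightest of its probe sets, not separated (-0.74 ± 0.18). Its second, the one close to Adipoq in profile, was separated lower (-0.78 ± 0.088, SE of duplicates). Lipe, the gene named in the genotype, had intensities of 16.2 and 19.4 in HSL-null, against 71.4 and 70.2 in wildtype. Both HSL-null arrays lay under 27.7, so that Lipe passed the filter through its wildtype level. Of the 6 white adipocyte markers above the filter 4 are members and 1 is Lipe itself, whose difference goes with the genotype. Agt, the member above the filter that lay above 0 (0.98), is not among these markers. Without Lipe, a choice made after seeing the data, the other 5 had a median of -0.25 (-0.30 with it). They lay below 0 with each of the 4 scalings. Lep is counted among them although its pools overlapped and no direction is given for it. Thrsp, which is neither a member nor Lipe, differed by -0.25 ± 0.096 (SE of duplicates). Over all probe sets above the filter, 50.5% lay below 0 as deposited, and 3724 of 6208 with median centring. The summed intensity without Lipe was 458.1 and 457.4 over 8 genes in HSL-null, against 615.8 and 608.9 in wildtype, a gap to which Adipoq gave the most. Cidec, a lipid droplet protein gene that marks fat cells, was under the floor on all 4 arrays. Of the brown adipocyte markers only Cidea passed the filter, at 74.0 and 53.2 in HSL-null and 66.6 and 64.3 in wildtype; Ucp1, the uncoupling protein that defines brown fat, lay under it on all 4 arrays.

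**Figure D4:**
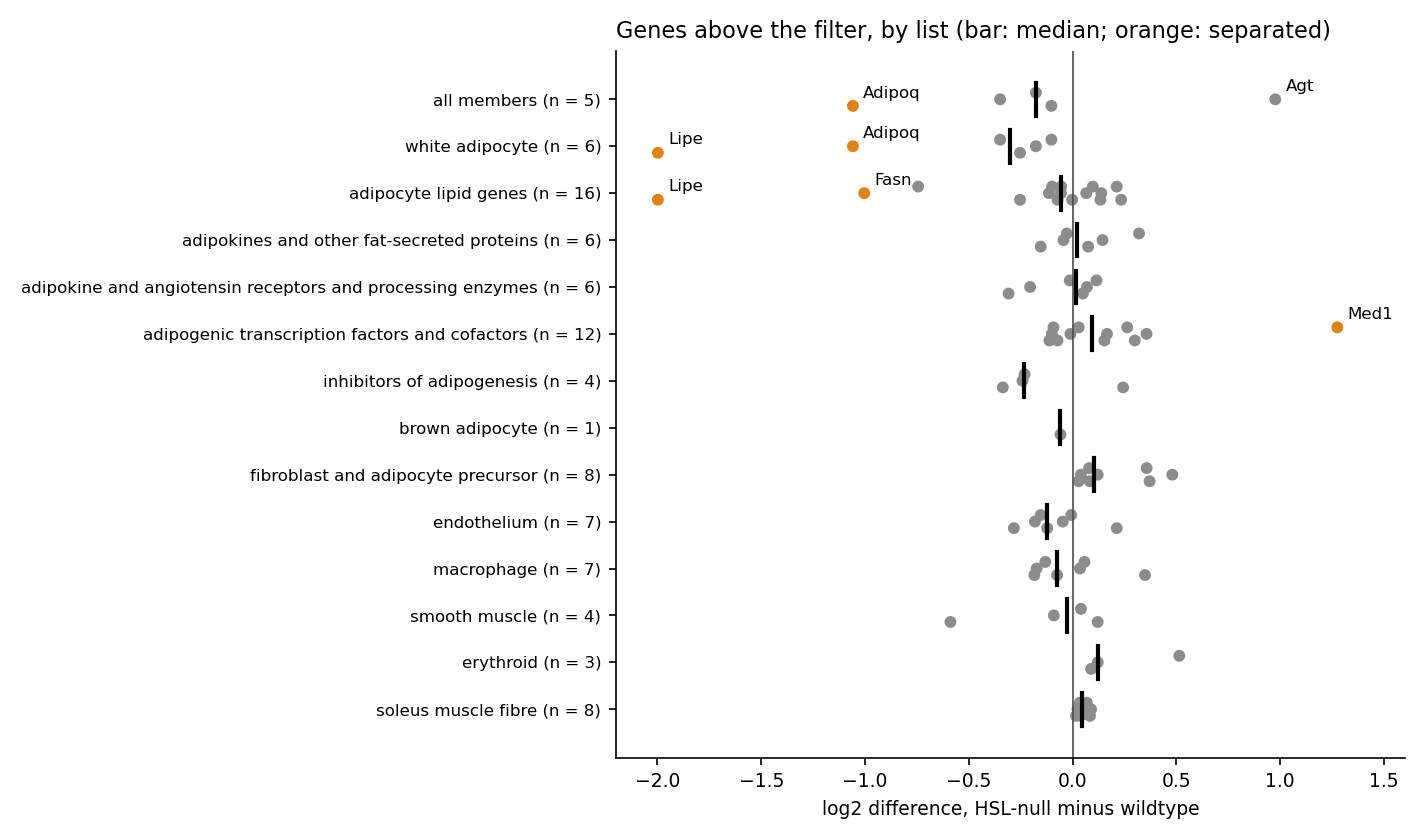
log2 difference, HSL-null minus wildtype, of the genes above the filter in each list (points; orange where separated), with a bar at the median and the number of genes in brackets. Adipoq, Lipe, Fasn and Med1 are the separated genes. The white adipocyte markers (Agt not among them) have a median of -0.30 with Lipe, the gene named in the genotype, and -0.25 without it. The lists of receptors and of other secreted proteins have medians near 0, whose sign turns with median centring.

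Markers of other cells in the muscle were measured beside these genes, and none of them was separated. The muscle fibre markers went with the tissue label: Tnnt1, the slow troponin T, lay between 5646 and 6183 on the 4 arrays, and all 8 markers passed the filter, with a median log2 difference of 0.043 (0.0098 with median centring and 0.0035 with quantile normalization). The fibre markers lay above 0 for 8 of 8 as deposited, for 6 with median centring and for 4 with quantile normalization. Markers of fibroblasts and fat cell precursors also lay above 0 for 8 of 8 (7 with median centring or quantile normalization), against 3074 of all 6208 probe sets. Their median was 0.10. Their sums were 4103 and 4248 in HSL-null, against 3648 and 3615 in wildtype, opposite to the direction of Adipoq. Col1a1 gave the most to that gap, with 851.3 and 889.3 in HSL-null, against 607.3 and 640.5 in wildtype. Dcn, the brightest of them, differed by 0.079 ± 0.020 (SE of duplicates). Endothelial markers had a median of -0.12, and their summed intensity was 848.2 and 850.7 in HSL-null, against 860.4 and 904.4 in wildtype. Of the 7, 1 was lower without overlap (Pecam1, -0.28) and 1 was higher (Flt1, 0.21), against 21.1% and 19.5% of all probe sets. Macrophage markers summed to 661.1 and 673.0 in HSL-null, against 653.3 and 691.0 in wildtype, with a median of -0.075. Smooth muscle and erythroid markers had medians of -0.025 and 0.12, and the erythroid markers lay above 0 for 3 of 3. The part of these cell types in the members' differences was not tested.

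**Figure D5:**
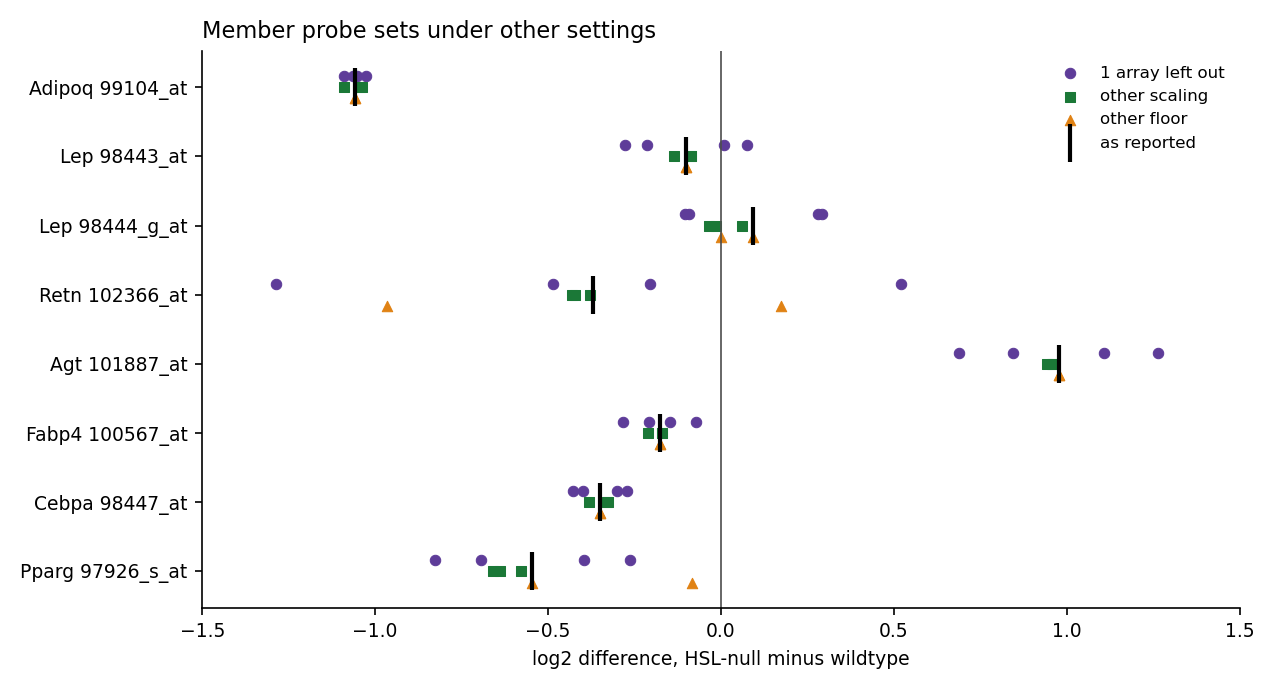
log2 difference of each member probe set as reported (bars), with 1 array left out (circles), with 3 other scalings (squares) and with 2 other floors (triangles). Adipoq stays between -1.09 and -1.03 and Agt between 0.69 and 1.26, while the values of Retn and of both Lep probe sets lie on both sides of 0.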

How the data were processed

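RNA of 1 HSL-null and 1 wildtype soleus pool was measured on 2 duplicate arrays each. The authors deposited linear intensities, 1 per array for 12488 probe sets. After trimming 2% at either end, the mean was 100.08 on all 4 arrays, so the authors had scaled the values, and they were used as deposited. No software or background correction is named in the sources used here. Names came from the platform annotation (10855 with 1 symbol, 396 with several, 1237 not listed), updated by gene ID to RefSeq (GRCm38.p6), and 66 control probe sets were left out. Intensities were floored at 5.7 and transformed to log2. Errors are SDs over 2 arrays, and standard errors of duplicates for log2 differences. The number of arrays limits the precision. The members and lists were chosen with earlier results of these data known. A gene stood in its list by its brightest probe set. Every member probe set was named, and of each list the separated members (at most 4) or the 2 brightest, the members' receptors, and the 5 closest profiles of Adipoq and Agt. Markers of other cells with no separated member were given as lists, with some of their genes named. Among the genes named outside these rules were Rbp4, Dlk1, Gata2, Tnf, Il6, Ace, Cebpb, Cebpd, Cidec, Thrsp, Alb, Ucp1, Pecam1 and Flt1. Alternatives covered scaling, floor, filter, threshold, leaving out 1 array at a time, the replicate number and, added after seeing the data, the white adipocyte list without Lipe (Python 3.11.15, numpy 2.4.6, pandas 2.3.3, R 4.3.3, limma 3.58.1 for quantile normalization and cyclic loess).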

Additional observations from a re-analysis of the deposited data

How the results depend on the processing

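Adipoq was the member separated lower under each of the 14 alternatives, and the count of members separated lower stayed at 1 above the filter in force. All 4 array pairs of Adipoq already passed 1.5-fold. Leaving out an array, blocking by replicate number, a 1.3-fold threshold or no filter could therefore not undo that call. The other floors lay under every Adipoq intensity and left its difference unchanged. The count separated higher was 0, but 1 (Agt) with a 1.3-fold threshold, and from 0 to 1 with each array left out. The log2 difference kept its sign under all 10 alternatives that recompute it for Adipoq, Cebpa, Fabp4, Pparg and Agt, and not for Lep or Retn. For the genes that kept it, all 4 array pairs already had that sign. Leaving out an array, blocking by replicate number or moving the floor could therefore not turn it, and only the other scalings could. The median of the member genes was -0.35 with no filter and -0.35 with the filter at the 75th percentile, where 7 and 3 genes entered, and it ran from -0.28 to -0.15 with each array left out. Over all probe sets, 28 were separated, against 175 with no filter, 10 with the filter at the 75th percentile, 95 at 1.3-fold, 14 at 2-fold and from 81 to 108 with 1 array left out, where a call needs 2 array pairs in place of 4. With the replicate number as a block 35 were separated, the member counts were 1 lower and 0 higher, and the median stayed at -0.18. The labels do not say that the numbers pair the arrays, and deviations of same-numbered arrays correlated at -0.086 across probe sets. Signal limits Retn, Pparg and the second Lep probe set, all under the filter.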
